A study of Mus musculus with 6 samples.

Results

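The glycolysis and lactate genes described here are 34 mouse genes for glucose uptake, the enzymes from hexokinase to pyruvate kinase, lactate dehydrogenase, lactate transport and the gate to the mitochondrial oxidation of pyruvate. They were picked by name as members of the pathway, with earlier results of these data known. They were found by gene symbol among the 25700 genes of the count files. All 34 were present, and all 34 passed the filter on low counts, as did 12433 genes in total.

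Glycolysis splits glucose into pyruvate in the cytosol. Glucose enters through facilitative transporters of the Slc2a family, is trapped by hexokinase, and is committed to the pathway by phosphofructokinase, the step set by fructose 2,6-bisphosphate. Pyruvate is either reduced to lactate and exported with a proton, or oxidized by pyruvate dehydrogenase (PDH), which PDH kinases switch off. Most steps are served by several isozymes, each from its own gene, with different kinetics and tissue distribution. Activated macrophages are known for a high glycolytic flux, and several of these genes are textbook targets of the hypoxia-inducible factors (HIF).

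The experiment addressed what heme does to macrophages as they differentiate from bone marrow. Bone marrow of C57BL/6J mice, 8 to 10 weeks old, was cultured with 100 ng/ml M-CSF, the growth factor that turns marrow cells into bone marrow-derived macrophages (BMDMs). On day 3, cultures received 300 μM heme-albumin (heme group, n = 3 libraries) or albumin alone (control group, n = 3 libraries), and RNA was collected on day 7. The cells were thus exposed while still differentiating, and all of them carried M-CSF and albumin. Each library came from 1 mouse by the study's description, and the labels do not link the libraries of one group to those of the other.

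The libraries held 27201038 to 32994595 counts, and replicates of a group differed by more than counting noise (chi-square per degree of freedom 6.22 to 50). Levels below are CPM, counts set in proportion to the library's total after TMM scaling, and every fold change and adjusted p is from edgeR's quasi-likelihood test over all 12433 genes, with a gene called at an adjusted p under 0.05. Hmox1, the heme-degrading enzyme that marks exposure to heme, rose from 584 ± 57.7 to 20990 ± 695 CPM (mean ± SD, n = 3 each), 35.9-fold. The 12 macrophage markers summed to between 33810 and 39650 CPM in controls and between 37290 and 40490 CPM with heme, a sum made up mostly of Lyz2 (28000 ± 2590 and 32540 ± 1580 CPM, not called). Of the 12, 9 were called lower and 2 higher. Adgre1, which encodes F4/80, fell from 1027 ± 64.0 to 677 ± 46.8 CPM (log2 -0.60, adjusted p = 0.000128) and the mannose receptor gene Mrc1 from 1030 ± 74.0 to 29.1 ± 9.38 CPM, while Fcgr1, Mertk, Cd163 and Cd14 changed by -1.56 to -2.01 on the log2 scale. The part of these falls in the results below was not tested. The neutrophil list of 12 markers summed to between 58.0 and 117 CPM in controls and to between 126 and 170 CPM with heme. Of the 9 tested, 8 were called higher. Csf3r, the 1 called lower, made up most of the control sums (75.2 ± 28.1 CPM, and 35.5 ± 5.46 CPM with heme, log2 -1.08). The part of these markers in the results below was not tested. The granule genes Mpo and Elane of this list were at 0.0306 CPM at most in any control and reached 29.15 and 5.17 CPM with heme. The other lists summed to at most 4.25 CPM in any library. Hba-a2 and Slc4a1 (erythroid) and Cd3e and Cd3g (lymphoid) were at 0 throughout. Erythroid Hbb-bt went from 0 in controls to 0.958 ± 0.272 CPM with heme, and Epor fell. The mast cell and basophil list summed to between 0.597 and 1.04 CPM in controls and between 2.49 and 3.81 CPM with heme. Its genes Mcpt8 and Gata2 were called higher. Lymphoid Cd79b and endothelial Kdr were called lower, and stromal Pdgfrb and endothelial Pecam1 higher. The part of these changes was not tested. In bulk RNA, fewer cells of a type and less RNA per cell cannot be told apart.

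Control 1 stood apart from the other controls in these genes. Its levels were above the mean of Control 2 and Control 3 for 26 of the 34 genes, with a median log2 deviation of 0.25, against -0.01 over all tested genes. For 10 genes the deviation exceeded that of 95% of all genes: Pfkl, Tpi1, Gapdh, Pgk1, Pgam1, Eno1, Ldha, Slc16a1, Slc16a3 and Pdk1. Slc16a3 was 1.93-fold higher there than in the other controls. In the same library the transcription factor Myc was 2.79-fold and the HIF target Egln3 1.74-fold above the other controls. The neutrophil and macrophage marker sums there were the lowest of the 6 libraries. Csf3r made up most of that neutrophil sum (50.8 of 58.0 CPM). Values without Control 1 are given below for the genes that this library moves.

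**Figure D1:**
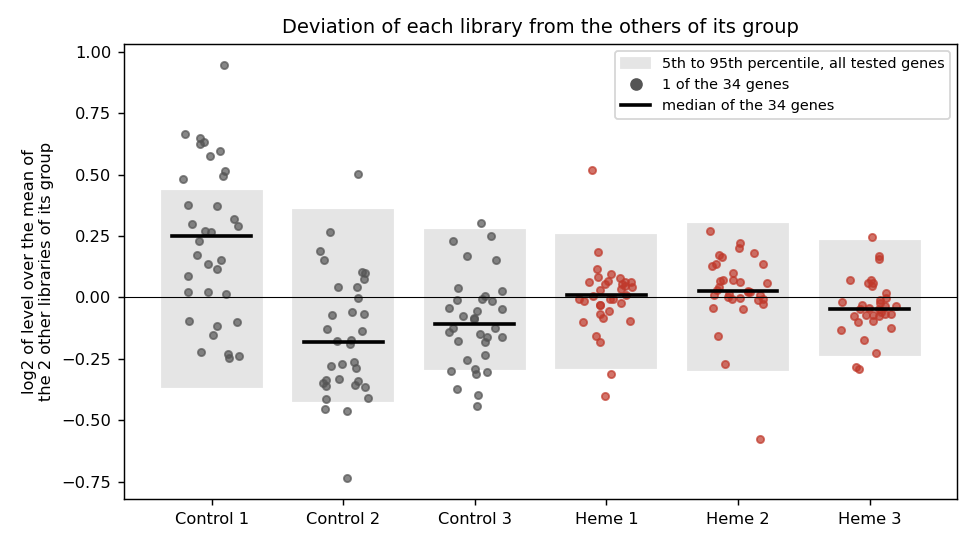
Each point is 1 of the 34 genes, plotted as the log2 ratio of its level in a library to the mean of the other libraries of the same group (y axis, prior of 0.5 CPM) for each library (x axis). The grey boxes span the 5th to 95th percentile of all tested genes and the black lines mark the median of the 34 genes, which is 0.25 in Control 1 and between -0.18 and 0.03 in the others.

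With heme, 20 of the 34 genes were higher and 6 were lower, and 8 were not called. Over all tested genes, 31.7% were called higher and 30.8% lower, so the rises lay above and the falls below the background, while the total of 26 calls stood beside a background of 62.5%. The 34 were chosen with earlier results of these data known, so the split describes this list and is no test of the pathway. The same 20 and 6 genes had no overlap between the groups, where 68.8% of all tested genes did not overlap. Changes of at least 1 on the log2 scale were called for 6 genes that rose (Slc2a1, Hk2, Pfkp, Pkm, Ldhb and Slc16a1) and 3 that fell (Slc2a3, Slc2a8 and Aldoc), against 19.5% of all genes in either direction. The median log2 fold change of the 34 was 0.39, against 0.00 for all genes, and their range ran from -1.26 for Slc2a8 to 2.27 for Slc2a1. With library sizes alone as the scaling, the median of all genes moved by -0.22, the split of all calls went from 3938 higher and 3831 lower to 2579 and 5815, and that of the 34 genes to 16 and 8.

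The 34 genes together took 1.19%, 0.841% and 0.921% of all counts in the controls and 1.42%, 1.40% and 1.36% with heme. Every heme library lay above every control, and the shares of the heme libraries lay closer together (SD 0.0307) than those of the controls (SD 0.181). The most abundant genes weigh most in these shares. They were Pkm (2522 to 5255 CPM in the group means), Aldoa (1424 to 2226 CPM) and Gapdh (1290 to 2081 CPM).

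**Figure D2:**
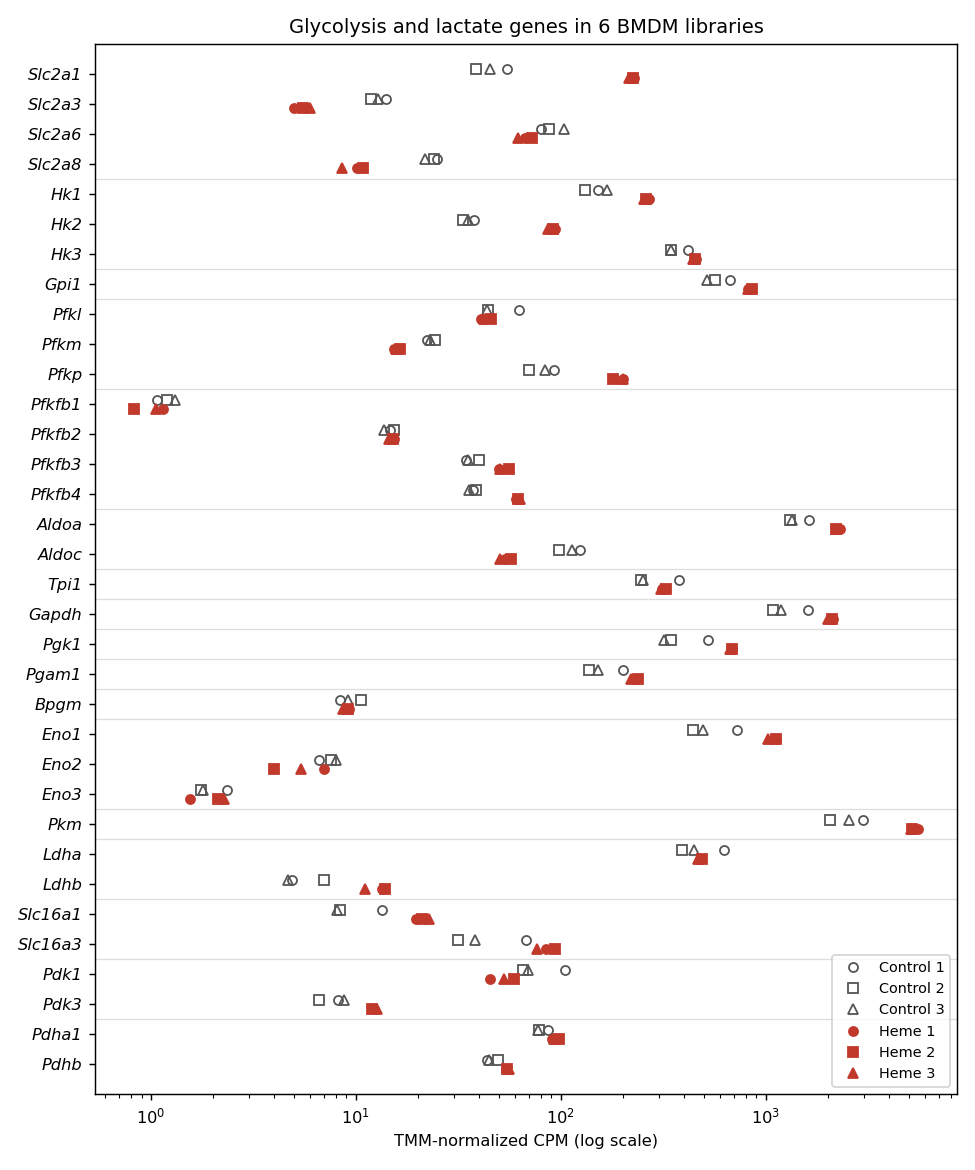
Levels of the 34 genes in TMM-normalized CPM (x axis, log scale), ordered by step of the pathway, with open symbols for the 3 control libraries, filled symbols for the 3 heme libraries and grey lines between steps. The heme libraries lie close together for most genes, and Control 1 (open circle) is the highest control for 22 of the 34.

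Glucose transporters moved in opposite directions. Slc2a1 (chr4:119108711-119137983, GRCm38), which encodes GLUT1, the transporter for basal glucose uptake in many cells, read 54.5, 38.7 and 45.1 CPM in the controls and 227, 224 and 214 CPM with heme. This was the largest change among the 34 genes, 4.81-fold (log2 2.27, SE 0.11, adjusted p = 2.12e-07), and 2.40 on the log2 scale without Control 1. Slc2a8 (chr2:32972990-32982083), encoding GLUT8, which resides mainly on intracellular membranes, went from 24.8, 24.0 and 21.8 CPM to 10.2, 10.8 and 8.545 CPM, a fall by 1.26 on the log2 scale (SE 0.11, adjusted p = 6.21e-06). Control and heme libraries were far apart for both genes.

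Slc2a3, encoding the high-affinity GLUT3, read 14.0, 11.8 and 12.8 CPM in the controls and 5.02, 5.53 and 5.98 CPM with heme (log2 -1.23, adjusted p = 1.35e-05). Slc2a6, encoding GLUT6, a transporter of inflammatory macrophages located in lysosomes, read 80.4, 87.4 and 103.5 CPM and then 66.6, 72.2 and 61.5 CPM (log2 -0.44, adjusted p = 0.00389). Slc2a3, Slc2a6 and Slc2a8 were thus lower in every heme library.

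Per transcript length, as TPM (counts over exon length, set in proportion to their sum in the library), Slc2a1 made up 26.1% ± 4.23 of the summed mRNA of the 4 transporters in controls and 72.01% ± 1.26 with heme, while Slc2a6 went from 55.8% ± 5.33 to 23.6% ± 1.06. The most abundant of the 4 mRNAs was Slc2a6 in every control library and Slc2a1 in every heme library. The ratio of Slc2a8 to Slc2a1, in which the scaling of a library cancels, fell by 3.54 on the log2 scale (limma, adjusted p = 2.39e-23, and 0.000205 with the pair's own variance). For Slc2a3 the log2 ratio changed by -3.50 (4.05e-22 and 0.000173) and for Slc2a6 by -2.71 (4.93e-20 and 0.000438). Here and below, the limma p-values with moderated variances are too small where the reference gene varied within a group. Because Slc2a1 itself moved so far, 97% of all tested genes were called as ratios to it.

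The promoter windows of Slc2a1 and Slc2a8, the genes with the largest rise and fall, are shown with the 5-letter cores of HIF binding sites, ACGTG or GCGTG on either strand, in capitals (RefSeq, GRCm38.p6, 250 bases before to 50 after the start, 5′ to 3′ on the gene's strand). Slc2a1 (chr4:119108495-119108794, plus strand) holds 2 matches and Slc2a8 (chr2:32982034-32982333, minus strand) 1.
Slc2a1: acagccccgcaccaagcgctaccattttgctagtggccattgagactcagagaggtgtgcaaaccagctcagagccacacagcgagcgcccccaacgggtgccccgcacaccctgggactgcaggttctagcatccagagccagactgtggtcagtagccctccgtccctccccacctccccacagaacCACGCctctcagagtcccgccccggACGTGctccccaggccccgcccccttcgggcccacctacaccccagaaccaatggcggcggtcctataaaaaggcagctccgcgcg
Slc2a8: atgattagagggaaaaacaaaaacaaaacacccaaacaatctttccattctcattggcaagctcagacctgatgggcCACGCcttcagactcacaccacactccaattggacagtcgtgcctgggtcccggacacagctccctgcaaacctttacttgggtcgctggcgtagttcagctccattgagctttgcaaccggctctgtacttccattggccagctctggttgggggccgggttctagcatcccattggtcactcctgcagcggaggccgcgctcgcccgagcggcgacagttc
A match is a string of letters, and binding was not measured here. The gene that rose and the gene that fell both hold one.

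All 3 hexokinase genes rose. Hk2 (chr6:82725025-82774454), the inducible isozyme that docks on mitochondria, read 37.9, 33.5 and 35.3 CPM in the controls and 93.7, 91.2 and 86.1 CPM with heme, 2.54-fold higher (log2 1.34, SE 0.07, adjusted p = 2.9e-07). Hk1, the housekeeping isozyme, went from 151, 131 and 168 CPM to 269, 260.2 and 254 CPM (log2 0.80, adjusted p = 4.08e-05). Hk3, the isozyme of myeloid cells, read 416, 346 and 345 CPM and then 456, 449.9 and 443 CPM, the smallest rise of the family (log2 0.28, adjusted p = 0.0128). The groups did not overlap for any of the 3, but the Hk3 call was lost without Control 3 (adjusted p = 0.0608) and with library sizes alone (0.551).

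Hk3 remained the main hexokinase mRNA, at 80.9% ± 2.06 of the family's TPM in controls and 72.8% ± 0.377 with heme, while Hk2 went from 4.83% ± 0.169 to 9.02% ± 0.218. The ratio of Hk3 to Hk2 fell by 1.06 on the log2 scale (limma, adjusted p = 2.21e-08, own variance 0.000229), beside a background of 94.1% of genes called against Hk2. Hk1 also rose less than Hk2 (log2 ratio -0.54, adjusted p = 6.15e-05, own variance 0.00487) and more than Hk3 (0.52, adjusted p = 0.00167, own variance 0.0376), where 62.4% of genes were called against Hk3.

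The Hk2 promoter window (chr6:82774405-82774704, minus strand) is shown as that of the hexokinase gene that rose most, with the same marking.
Hk2: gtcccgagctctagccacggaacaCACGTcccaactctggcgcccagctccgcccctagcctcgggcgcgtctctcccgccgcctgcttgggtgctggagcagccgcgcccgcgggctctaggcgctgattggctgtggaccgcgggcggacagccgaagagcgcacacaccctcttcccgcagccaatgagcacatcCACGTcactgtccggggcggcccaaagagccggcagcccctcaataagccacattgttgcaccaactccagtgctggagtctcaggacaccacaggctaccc
Both of its matches read CACGT, the reverse strand of ACGTG.

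Gpi1, phosphoglucose isomerase, which turns glucose 6-phosphate into fructose 6-phosphate, rose from 583 ± 76.4 to 828 ± 22.1 CPM (log2 0.51, adjusted p = 0.00113).

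At phosphofructokinase, the committed step, 1 isozyme rose, 1 fell and 1 was not called. Pfkp (chr13:6579768-6648777), the platelet-type subunit, read 92.5, 69.8 and 83.4 CPM in the controls and 201, 179.8 and 200 CPM with heme (2.37-fold, log2 1.24, SE 0.10, adjusted p = 5.32e-06). Pfkm, the muscle-type subunit, fell from 22.15, 24.3 and 23.1 CPM to 15.3, 16.35 and 15.8 CPM (log2 -0.55, adjusted p = 0.000169). For Pfkl, the liver-type subunit, the groups overlapped, with 62.8, 44.2 and 43.4 CPM in the controls and 41.0, 45.65 and 42.0 CPM with heme (log2 -0.23, adjusted p = 0.167). Without Control 1, whose value is the high one, the Pfkl estimate was -0.04.

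Pfkp went from 29.7% ± 2.24 of the family's TPM to 56.4% ± 2.698, whereas Pfkm went from 34.1% ± 4.70 to 18.5% ± 0.878 and Pfkl from 36.3% ± 4.19 to 25.1% ± 1.82. These shares depend on the length given to each gene, and the annotated exons of Pfkp span 13401 bases, but the change of a ratio does not. Pfkp rose against Pfkm by 1.80 on the log2 scale (limma, adjusted p = 4.99e-07, own variance 0.00218), beside 78.7% of genes called against Pfkm, and against Pfkl by 1.45 (adjusted p = 7.08e-11, own variance 0.00956), beside 40.4%. Between Pfkm and Pfkl the ratio changed by -0.35 and was not called (SE 0.21, adjusted p = 0.193), whereas without Control 1 the log2 ratio of Pfkm to Pfkl was called lower (-0.55, adjusted p = 0.000161).

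The window of Pfkp (chr13:6648722-6649021, minus strand) is shown as that of the phosphofructokinase gene that rose and holds 4 matches, all GCGTG.
Pfkp: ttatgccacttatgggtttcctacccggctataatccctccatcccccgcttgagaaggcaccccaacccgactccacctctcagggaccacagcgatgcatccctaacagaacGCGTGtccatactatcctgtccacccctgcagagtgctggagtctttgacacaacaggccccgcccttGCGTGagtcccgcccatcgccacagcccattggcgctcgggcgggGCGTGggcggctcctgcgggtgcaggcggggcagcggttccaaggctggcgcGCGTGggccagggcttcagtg
No copy of ACGTG on either strand lies in this window.

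The Pfkfb genes encode the enzymes that make and break fructose 2,6-bisphosphate, the activator of phosphofructokinase. Pfkfb4 rose from 37.3, 38.5 and 35.6 CPM to 60.2, 61.7 and 63.5 CPM (log2 0.73, SE 0.06, adjusted p = 7.24e-06). Pfkfb3, the isozyme with the strongest kinase activity, rose from 34.4, 39.6 and 35.1 CPM to 49.7, 56.1 and 50.4 CPM (log2 0.52, adjusted p = 0.000373). Pfkfb2, at 14.6 ± 0.787 and 15.0 ± 0.457 CPM, was not called (adjusted p = 0.676), nor was Pfkfb1, which was near 1 CPM throughout (adjusted p = 0.387).

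Pfkfb4 was the most abundant of the 4 per length, at 51.7% ± 1.01 and 57.9% ± 1.35 of their summed TPM. Against Pfkfb4, for which 85.9% of all genes were called, the ratio of Pfkfb2 fell by 0.69 on the log2 scale (limma, adjusted p = 3.54e-05, own variance 0.000773) and that of Pfkfb1 by 0.97 (adjusted p = 0.00245, own variance 0.00837). For Pfkfb3 the ratio changed by -0.22, which passed with moderated variances (adjusted p = 0.0312) but not with the pair's own variance (0.0534). Without Control 2, Control 3, Heme 1 or Heme 3, the log2 ratio of Pfkfb3 to Pfkfb4 was not called either (adjusted p = 0.0669 to 0.127).

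From aldolase to pyruvate kinase, the predominant gene of each step rose, except for Tpi1. Aldoa, the main aldolase, which splits fructose 1,6-bisphosphate, rose from 1620, 1309 and 1342 CPM to 2290, 2200 and 2190 CPM (log2 0.65, adjusted p = 0.000238). Aldoc, the brain-type aldolase, went the other way, from 124, 98.4 and 113.5 CPM to 53.6, 57.1 and 50.4 CPM (log2 -1.06, SE 0.09, adjusted p = 8.17e-06). Aldoc thus dropped from 6.57% ± 0.387 to 2.11% ± 0.137 of aldolase TPM, and its ratio to Aldoa fell by 1.71 on the log2 scale (limma, adjusted p = 5.46e-10, own variance 0.00118), beside a background of 80.8%.

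Gapdh, which makes the NADH of the pathway, read 1599, 1087 and 1186 CPM in the controls and 2122, 2105 and 2017 CPM with heme (log2 0.69, adjusted p = 0.00132). Pgk1, which makes the first ATP of the pay-off phase, read 520, 345 and 318.5 CPM and then 680.1, 680.3 and 670.2 CPM (log2 0.78, adjusted p = 0.00196). Pgam1, which moves the phosphate of phosphoglycerate, read 202, 137 and 151 CPM and then 234, 237 and 220.1 CPM (log2 0.49, adjusted p = 0.00678). In each of these genes Control 1 was the highest control and still below every heme library. Without it the log2 fold changes were 0.87, 1.02 and 0.67, and with library sizes alone Pgam1 was not called (adjusted p = 0.0972).

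Tpi1, triosephosphate isomerase, was the one predominant gene of a step from aldolase to pyruvate kinase that was not called (log2 0.11, SE 0.14, adjusted p = 0.516). It read 377, 247 and 252 CPM in the controls and 312, 326 and 309 CPM with heme, so that Control 1 alone lay above the heme libraries. Without that library Tpi1 was called higher (log2 0.33, adjusted p = 0.000858). Bpgm, which diverts a glycolytic intermediate to 2,3-bisphosphoglycerate, was at 9.40 ± 1.17 and 9.03 ± 0.291 CPM and was not called (adjusted p = 0.685). The log2 ratio of Bpgm to Pgam1 changed by -0.56 (limma, adjusted p = 0.0169, but 0.147 with its own variance and 0.067 to 0.146 without any 1 library other than Control 1), where 63.6% of all genes were called.

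Eno1, the general enolase, rose from 721, 441 and 494 CPM to 1115, 1115 and 1022 CPM (1.96-fold, log2 0.97, adjusted p = 0.000511), and by 1.21 on the log2 scale without Control 1. The neuronal Eno2 and the muscle Eno3 together held under 3% of enolase TPM in the control mean, and neither was called. Eno2 read 7.39 ± 0.718 and 5.46 ± 1.49 CPM (log2 -0.43, adjusted p = 0.071), and was called lower without Control 1 (adjusted p = 0.0387) and without Heme 1 (0.0151). Eno3 was at 1.97 ± 0.328 and 1.99 ± 0.384 CPM. As ratios to Eno1, Eno2 fell by 1.47 (limma, adjusted p = 2.13e-07, own variance 0.0292) and Eno3 by 1.00 (adjusted p = 0.00349, own variance 0.0218) on the log2 scale, beside a background of 83%. Without Heme 1 the log2 ratio of Eno3 to Eno1 was not called (adjusted p = 0.0576).

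Pkm (chr9:59656368-59679375), pyruvate kinase, which makes pyruvate and the last ATP of the pathway, had the highest mean level per length of the 34 genes in both groups (1671 and 2837 TPM). It rose from 2973, 2063 and 2531 CPM to 5539, 5144 and 5082 CPM (2.08-fold, log2 1.06, SE 0.13, adjusted p = 6.91e-05). No control library came near the heme libraries. The counts are per gene, so the M1 and M2 splice forms of Pkm could not be separated. An unclassified gene model on the same strand, Gm49759, shares 767 bases, 15.3% of the exon bases of Pkm, and went from a mean of 9195 to 15140 counts. The assignment of reads in this stretch is unknown.

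**Figure D3:**
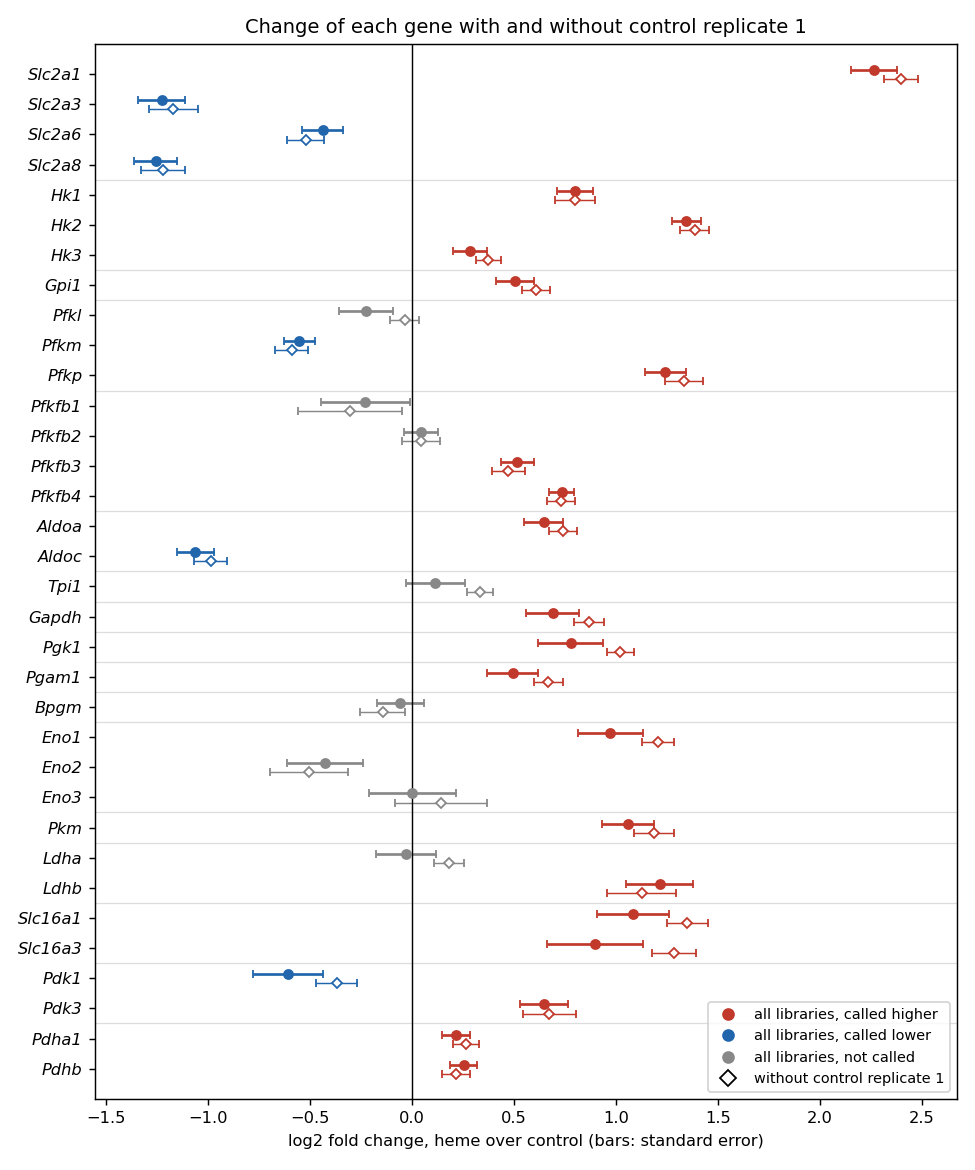
Log2 fold change of each gene, heme over control (x axis), with standard errors as bars, for all 6 libraries (filled circles) and without Control 1 (open diamonds), both coloured by the call from all 6 libraries. Rises without Control 1 are larger for most lower-pathway genes, from 0.97 to 1.21 for Eno1, and Tpi1 moves from 0.11 to 0.33.

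Of the lactate dehydrogenase genes, the minor Ldhb rose and the major Ldha was not called. Ldha (chr7:46841475-46855627), the subunit that favours lactate formation, read 623, 390.5 and 446 CPM in the controls and 478, 486 and 466 CPM with heme (log2 -0.03, SE 0.15, adjusted p = 0.868). The heme values lay within the spread of the controls, and without Control 1 the estimate was 0.18 (adjusted p = 0.0532). Ldhb, the subunit that favours pyruvate formation from lactate, rose from 4.89, 6.98 and 4.68 CPM to 13.4, 13.9 and 11.1 CPM (2.32-fold, log2 1.21, SE 0.17, adjusted p = 0.000162). Ldhb was higher in every heme library than in any control.

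Ldha made up 97.5% ± 1.04 of the summed TPM of the pair in controls and 94.7% ± 0.507 with heme. The ratio of Ldhb to Ldha rose by 1.23 on the log2 scale without overlap (limma, adjusted p = 3.93e-06), beside a background of 33.5%, but with the pair's own variance the adjusted p was 0.0976.

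The lactate transporter genes Slc16a1 and Slc16a3 both rose. Slc16a7, a further monocarboxylate transporter gene described below with lactate and pyruvate handling, fell. Its mean went from 52.25 to 21.7 CPM (log2 -1.27, adjusted p = 1.79e-06). Slc16a7 is not part of the shares in this paragraph. Slc16a1, encoding MCT1, which carries lactate in either direction, read 13.4, 8.38 and 8.13 CPM in the controls and 19.6, 21.1 and 22.8 CPM with heme (log2 1.08, SE 0.18, adjusted p = 0.000502). Slc16a3, encoding MCT4, the exporter of glycolytic cells, read 67.4, 31.4 and 38 CPM and then 84.8, 93.95 and 76.4 CPM (log2 0.90, SE 0.24, adjusted p = 0.00802). Control 1 was the highest control for both, and without it the log2 fold changes were 1.35 and 1.29. Slc16a3 held 78.7% ± 2.62 and 76.9% ± 2.83 of their summed TPM, and its ratio to Slc16a1 was not called (log2 -0.15, SE 0.28, limma, adjusted p = 0.613), where 84.7% of all genes were.

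At the gate to the mitochondria, the PDH kinase genes Pdk1 and Pdk3 moved apart. A further PDH kinase gene, Pdk2, described below with lactate and pyruvate handling, fell. Its mean went from 15.9 to 8.82 CPM (log2 -0.85, adjusted p = 0.000361). Pdk2 is not part of the share in this paragraph. Pdk1, a kinase that inactivates PDH and a HIF target, read 104.7, 65.3 and 69.3 CPM in the controls and 45.1, 59.2 and 52.8 CPM with heme (log2 -0.61, SE 0.17, adjusted p = 0.0117). Its change was -0.37 on the log2 scale without Control 1 (adjusted p = 0.00788) and was not called without Heme 1 (adjusted p = 0.0549). Pdk3, another PDH kinase, rose from 8.18, 6.59 and 8.74 CPM to 12.2, 12.0 and 12.6 CPM (log2 0.65, adjusted p = 0.0011). The Pdk3 share of the summed TPM of Pdk1 and Pdk3 went from 23.4% ± 4.27 to 41.8% ± 3.46. The log2 ratio of Pdk3 to Pdk1 rose by 1.24 (limma, adjusted p = 6.58e-05, own variance 0.0322), beside a background of 51.6%.

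The genes of the PDH subunits rose by small amounts. Pdha1, the catalytic alpha subunit and the site of the kinases' action, went from 80.5 ± 4.99 to 93.6 ± 3.98 CPM (log2 0.22, adjusted p = 0.0195), and Pdhb, the beta subunit, from 45.8 ± 2.91 to 54.6 ± 1.02 CPM (log2 0.25, adjusted p = 0.00839). With library sizes alone neither was called, and the Pdha1 estimate turned to -0.0052 (adjusted p = 0.955). The call of Pdha1 was also lost without any 1 of Control 2, Control 3, Heme 2 and Heme 3, with adjusted p from 0.0529 to 0.0793. Map3k15 on the other strand shares 16.1% of the exon bases of Pdha1. The ratio of Pdhb to Pdha1 was 0.553 ± 0.0601 in controls and 0.565 ± 0.0247 with heme per length. It did not pass the test (log2 0.04, SE 0.10, limma, adjusted p = 0.754). The ratio of Pdk1 to Pdha1 fell by 0.80 on the log2 scale (limma, adjusted p = 0.000156, own variance 0.0276), where 63.1% of genes were called against Pdha1.

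In all, 21 isozyme or enzyme pairs were compared, of which 5 ratios were higher and 13 lower with heme, and 3 were not called. The pairs share 13 reference genes, against which 33.5% to 97% of all tested genes were called. The direction of a ratio depends on which gene was taken as the reference. With each pair's own variance, 4 were higher and 11 lower, and the pairs Pfkfb3 to Pfkfb4, Bpgm to Pgam1 and Ldhb to Ldha lost their call. The groups did not overlap for 18 pairs, each at an exact two-sided permutation p = 0.1, the smallest that 3 against 3 libraries allow. No background over all genes was computed for this overlap or for the test with a pair's own variance.

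**Figure D4:**
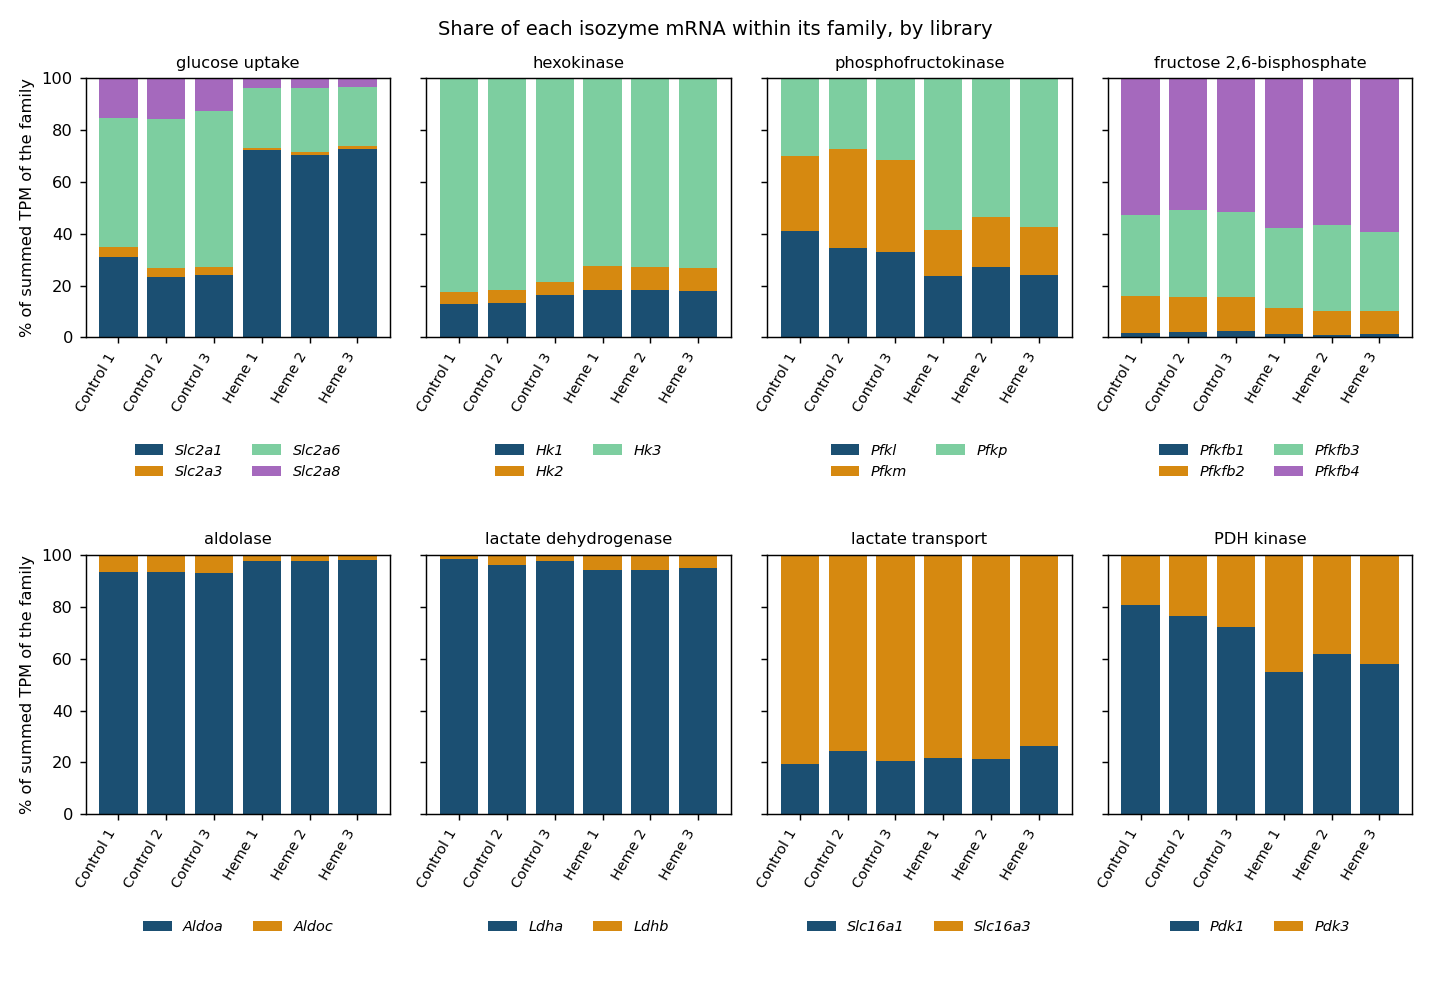
Stacked bars give the share of each isozyme in the summed TPM of its family (y axis, %, from 0 to 100) in each of the 6 libraries (x axis), for 8 families. Slc2a1 fills 23.3% to 30.9% of the transporter bar in the controls and 70.6% to 72.9% with heme, and Pfkp 27.3% to 31.7% and 53.3% to 58.4% of the phosphofructokinase bar.

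Summed over isozymes, the steps could be set side by side per length. On the TMM scale, 13 of the 17 steps were higher in every heme library than in any control and none lower. Over all tested single genes, 4329 of 12433 were higher and 4231 lower without overlap. A step of 1 gene repeats the values of that gene above. The lactate transport step sums Slc16a1 and Slc16a3 and leaves out Slc16a7, which fell. Likewise, the PDH kinase step sums Pdk1 and Pdk3 and leaves out Pdk2, which fell (log2 -0.85). The log2 ratios of the group means were 1.06 for pyruvate kinase, 0.95 for enolase, 0.94 for lactate transport, 0.80 for glucose uptake, 0.78 for phosphoglycerate kinase and 0.69 for Gapdh. The ratios were 0.44 for hexokinase and 0.32 for phosphofructokinase, where isozymes moved unequally. The groups overlapped for triosephosphate isomerase (0.11), bisphosphoglycerate mutase (-0.06), lactate dehydrogenase (0.02) and PDH kinase (-0.21). The main scale of the step sums was TPM, on which the median of all genes fell by 0.29 on the log2 scale. As TPM, 7 steps were higher and 2 lower without overlap. The 7 were glucose uptake, the fructose 2,6-bisphosphate enzymes, aldolase, Gapdh, phosphoglycerate kinase, enolase and pyruvate kinase, and the 2 were bisphosphoglycerate mutase and PDH kinase. As TPM, the log2 ratio was 0.76 for pyruvate kinase, 0.66 for enolase and 0.51 for glucose uptake. With overlap between the groups, it was 0.64 for lactate transport, 0.15 for hexokinase and 0.02 for phosphofructokinase. No step sum could reach an exact permutation p below 0.1. Summed glucose uptake, for example, was 170.1, 153 and 176 TPM in the controls and 236, 248.5 and 227 TPM with heme.

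Of 77 other genes of glucose metabolism and its regulation, taken from textbook knowledge, 58 were tested and 19 did not pass the filter on low counts. With heme, 26 of the 58 rose, 16 fell and 16 were not called, beside 31.7% of all tested genes higher and 30.8% lower. The share of falls thus lay near the background. In glucose entry and storage, 7 of 14 tested genes rose and 3 fell, against the same 31.7% and 30.8%. Among those that rose were Gbe1, the glycogen branching enzyme (63.8 ± 10.7 to 331 ± 7.36 CPM, log2 2.37, adjusted p = 1.38e-07), and Ugp2, which makes the UDP-glucose for glycogen (82.8 ± 9.45 to 255 ± 1.69 CPM, log2 1.62). Gyg, the glycogenin primer, fell (216 ± 40.1 to 118 ± 3.32 CPM, log2 -0.87, adjusted p = 0.000158), as did the glycogen phosphorylase Pygb (log2 -0.59) and the transporter gene Slc2a9 (log2 -0.31).

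Of 4 tested gluconeogenesis genes, 3 rose and 0 fell, against 31.7% and 30.8%. Pcx, pyruvate carboxylase, which turns pyruvate into oxaloacetate, read 12.0, 10.2 and 12.3 CPM in the controls and 161, 136.5 and 136.7 CPM with heme, 12.6-fold higher (log2 3.65, SE 0.10, adjusted p = 7.59e-09). This exceeded the change of any of the 34 genes. G6pc3, the ubiquitous glucose-6-phosphatase, rose from 19.9 ± 0.678 to 46.0 ± 1.76 CPM (log2 1.21), and Pck2, the mitochondrial PEP carboxykinase, by 0.32 on the log2 scale (adjusted p = 0.00625). With library sizes alone the log2 fold change of Pck2 was 0.10 and not called (adjusted p = 0.255).

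Among genes of lower glycolysis and its shunts, 4 of 10 tested rose and 3 fell, near the 31.7% and 30.8% of all genes. Tigar, a fructose bisphosphatase that lowers fructose 2,6-bisphosphate, rose (log2 0.80, adjusted p = 7.01e-05), as did Gpd1 (0.95) of the glycerol phosphate shuttle and Minpp1 (0.33), though the log2 fold change of Minpp1 was not called with library sizes alone (0.10, adjusted p = 0.351). Pgam2, the muscle mutase, fell (-1.04), together with the shuttle enzyme genes Got1 (-0.51) and Gpd1l (-0.50).

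In lactate and pyruvate handling, 5 of 13 tested genes rose and 4 fell, likewise near 31.7% and 30.8%. Emb, a chaperone of the monocarboxylate transporters, rose from 284 ± 23.8 to 712 ± 19.3 CPM (log2 1.33, adjusted p = 5.32e-07), and both subunits of the mitochondrial pyruvate carrier rose, Mpc2 by a log2 fold change of 1.06 (adjusted p = 0.000143) and Mpc1 by 0.63 (adjusted p = 0.00449). Slc16a7, encoding the monocarboxylate transporter MCT2, fell (52.2 ± 4.18 to 21.7 ± 1.82 CPM, log2 -1.27, adjusted p = 1.79e-06). Pdk2, a further PDH kinase (-0.85), and Pdp2, an opposing phosphatase (-0.71), fell as well.

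Among 17 tested regulators, 7 rose and 6 fell, which is also close to 31.7% and 30.8%. The HIF alpha subunit genes moved in opposite directions: Epas1, encoding HIF-2 alpha, read 23.9, 19.0 and 21.4 CPM in the controls and 3.20, 3.63 and 3.34 CPM with heme (log2 -2.66, SE 0.12, adjusted p = 1.24e-07), while Hif1a, encoding HIF-1 alpha and named here after its values were seen, read 113, 86.2 and 105 CPM and then 142, 161 and 143.5 CPM (log2 0.55, adjusted p = 0.00104). The partner gene Arnt fell (log2 -0.36, adjusted p = 0.00134). Egln3, a prolyl hydroxylase gene induced by HIF, rose (2.96 ± 1.24 to 10.5 ± 0.657 CPM, log2 1.82), as did Myc (13.1 ± 8.94 to 44.2 ± 2.56 CPM, log2 1.74, or a log2 fold change of Myc of 2.45 without Control 1) and Prkaa2, an AMP kinase subunit (1.69 ± 0.424 to 12.2 ± 0.329 CPM, log2 2.84). Txnip, an inhibitor of glucose uptake that is itself induced by glucose, read 558, 878 and 621 CPM and then 538, 522 and 527 CPM (log2 -0.37, adjusted p = 0.0456). The log2 fold change of Txnip was not called without Control 2 (-0.17, adjusted p = 0.0723) or without any 1 heme library (0.0992 to 0.113).

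RefSeq promoter windows of 300 bases were at hand for 33 of the 34 genes, 51 windows in all, and not for Slc2a3. A gene had up to 4 windows, and some windows of the same gene overlapped, so a site can be counted more than once. One of the HIF cores ACGTG and GCGTG was found on either strand in 76.5% of these windows, against 43.8% of all 32851 windows. For ACGTG alone the shares were 43.1% and 19.6%, and for GCGTG alone 56.9% and 32.4%. The E-box CACGTG, which contains ACGTG, was found in 9.8% and 7.15%, and TGACNNNGC, the core bound by NRF2, in 7.84% and 12.4%. Both HIF cores contain CG. The windows of the 33 genes were also richer in G and C (58.8% against 53.8%) and held 16.6 CG dinucleotides on average against 12.4, and the part of base composition in these shares was not tested. By gene, 29 of the 33 held either HIF core in a window, and no such share was computed over all genes. Genes whose windows held neither HIF core were Gpi1, which rose, and Tpi1, Bpgm and Eno2, which were not called. Matches stood in front of genes that rose and of genes that fell.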

How the data were processed

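RNA of mouse BMDMs, 3 control and 3 heme-treated libraries, was measured by bulk RNA-Seq (stranded TruSeq, 15 PCR cycles, RIN above 9). The authors deposited 1 table of raw counts for every library, in whole reads per Ensembl gene. The submitters' processing notes name STAR 2.7.0, featureCounts and GRCm38.p5. For the annotation release and strand setting, not given in the sources used here, no choice could be checked, so reads of genes that overlap on either strand may be shared. Symbols and gene positions came from GENCODE M21 (GRCm38.p6), which lacked 36 of the 25700 identifiers (at most 0.0532% of a library's counts). Promoter sequences came from RefSeq (GRCm38.p6).

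In R 4.3.3, the filter of edgeR 4.0.16 (filterByExpr, minimum count 10) passed 12433 genes. After TMM scaling, the groups were compared by glmQLFit and glmQLFTest. Adjusted p is Benjamini-Hochberg over all tested genes. Isozyme ratios are log2 ratios of 2 genes within a library (prior count 0.5), tested with limma 3.58.1 for every gene against the reference gene, with moderated variances and adjustment over all genes. The reference's own spread enters every such ratio, so p-values with moderated variances are too small where the reference varied. After the data were seen, each pair was therefore also tested with its own variance, adjusted in the same way. TPM was computed from counts and the union of annotated exons. The text names all 34 genes, Hmox1, and up to 3 called genes per direction in each further list (average logCPM of at least 0), leaving out single genes not reported here. Marker lists hold 6 to 12 genes each. Members and lists were chosen with earlier results of these data known.

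Alternatives were other scalings, DESeq2 1.42.0, limma-voom, other filters, equal depth by thinning, a replicate block, prior count 2, coding length, and leaving out each library. The scripts were tested on simulated counts. Separately listed relatives (Aldoart1, Aldoart2, Eno1b, Gapdhs and Ldhal6b) held at most 55 counts in any library. In the smallest library 3 counts are 0.11 CPM, a limit set by counting error alone.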

Additional observations from a re-analysis of the deposited data

How the results depend on the processing

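Over all alternatives, 525 values of single genes among the 34 stayed on their side of the threshold, 11 lost and 7 gained a call, and 1 called gene changed sign, Pdha1 with library sizes alone (-0.0052). Estimates of Pfkfb2, Tpi1, Bpgm, Eno3 and Ldha, none of them called, crossed 0 under at least 1 alternative. With that scaling the log2 fold change of Bsg, a further called pathway gene, also changed sign (-0.0474, adjusted p = 0.534). Hk3, Pgam1 and Pdhb lost their calls there and Pfkl (-0.45, adjusted p = 0.0182) and Eno2 (-0.65, adjusted p = 0.0102) were called lower. The number of step sums higher in every heme library was 7 as TPM, 13 as TMM-scaled FPKM (with 0 lower) and 7 to 12 when 1 library was left out, 12 being without Control 1. Leaving out 1 library gave 18 to 21 of the 34 genes higher and 6 to 7 lower, beside 53.3% to 63.9% of all tested genes called in either direction. With the replicate block, 19 were higher and 6 lower, Pdha1 losing its call (adjusted p = 0.0509), beside 57.6% of all tested genes called. Equal numbers were not taken as pairs, since the deviations of Control n and Heme n correlated at -0.132, -0.175 and -0.0938. Requiring a log2 fold change of at least 0.5, chosen after the data were seen, left 16 higher and 5 lower. The share of all genes at this size was not computed. With 3 libraries per group, single ratios and step sums could not go below an exact permutation p of 0.1, and Pfkfb1, Eno3 and Eno2 rest on the lowest counts of the 34 genes.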

Other observations

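Some regulators outside the naming rule were looked at after their values were seen. Arrdc4, a relative of Txnip that also restrains glucose uptake, read 18.4, 30.7 and 25.8 CPM in the controls and 80.9, 75.8 and 77.5 CPM with heme (log2 1.65, edgeR, adjusted p = 1.23e-05), whereas Txnip was slightly lower. The HIF-degrading genes Vhl (19.6 ± 0.333 to 16.4 ± 0.729 CPM, adjusted p = 0.0121) and Egln1 (42.2 ± 4.14 to 35.97 ± 2.02 CPM, adjusted p = 0.0361) were both lower. The log2 fold change of Egln1 was not called without Control 1 (adjusted p = 0.0829), and the log2 fold change of Vhl was not called without Heme 3 (adjusted p = 0.0625).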
